A study of Mus musculus with 25 samples.

Results

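The 9 genes described here encode the enzymes that make fatty acids from small carbon units, together with the proteins that supply or accompany them: Acly, Acaca, Acacb, Fasn, Acss2, Aacs, Thrsp, Slc25a1 and Pnpla3. They were chosen by symbol from the deposited table of array values, which gave 22180 genes with a symbol of their own, and each of the 9 was measured by 1 transcript cluster, the array's set of probes for a gene. In GRCm38.p6 they lie at chr11:100476352-100528000 (Acly), chr11:84129635-84401651 (Acaca), chr5:114146321-114250761 (Acacb), chr11:120805958-120825166 (Fasn), chr2:155518043-155562743 (Acss2), chr5:125475873-125517405 (Aacs), chr7:97412933-97417550 (Thrsp), chr16:17925211-17928219 (Slc25a1) and chr15:84167776-84189521 (Pnpla3). The study followed gonadal white adipose tissue of male mice heterozygous for ApoE3L.CETP, a model that combines the APOE*3-Leiden transgene with human cholesteryl ester transfer protein. These transgenes were present in all groups, chow included, so the set holds no wild-type comparison.

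Mice aged 12 weeks were given either a high-fat diet (HFD; 60% fat, 20% carbohydrate and 20% protein, with 0.25% cholesterol) or a low-fat diet (LFD; 10% fat, 70% carbohydrate and 20% protein), so the diets differed in fat, carbohydrate and cholesterol together. Tissue was taken after 4 weeks (3 HFD and 4 LFD mice), 8 weeks (4 and 4) and 12 weeks (4 and 4), and from 2 mice on chow at the start of the diets. The labels give ages of 12 weeks for chow, 16 and 20 weeks for the first 2 diet times, and 34 weeks for the groups with 12 weeks of diet, which 12 weeks of diet from an age of 12 weeks would not give; time on diet is used below. Each of the 25 Affymetrix Mouse Gene 2.0 ST arrays measured 1 mouse.

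De novo lipogenesis turns carbohydrate carbon into fat. Citrate leaves the mitochondrion through the carrier Slc25a1, ATP citrate lyase (Acly) splits it to acetyl-CoA in the cytosol, acetyl-CoA carboxylase (Acaca, and Acacb at the mitochondrial surface) makes malonyl-CoA, and fatty acid synthase (Fasn) builds palmitate from it. In liver and fat the pathway's genes are known targets of the transcription factors SREBP-1c (Srebf1) and ChREBP (Mlxipl), which respond to insulin and to sugar.

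Array medians over all clusters ran from 5.04 to 5.36 (log2), and 11 of the 11 measured adipocyte markers had a mean above the median of all clusters. Hepatocyte transcripts were high (list mean above 8) on 11 arrays, all at 8 or 12 weeks: 3 HFD and 2 LFD arrays at 8 weeks, and 3 HFD and 3 LFD arrays at 12 weeks. Some arrays below that limit also held them. At 4 weeks LFD array 1 and HFD array 1 had list means of 7.05 and 6.90, against 5.16 and 5.37 on chow. Alb, encoding albumin, was at 11.64 and 11.40 on them, against 6.53 and 6.60 on chow. Epididymal transcripts, of the organ beside this fat pad, had a list mean of 12.0 on chow array 1, 10.4 on HFD array 1 at 4 weeks and 5.42 on LFD array 1 at 4 weeks, against at most 3.99 on the other 22 arrays. On LFD array 1 at 4 weeks, fatty acid synthesis genes were low for its label: Acly, Fasn, Acss2 and Slc25a1 lay below all 3 HFD arrays of that time. The 2 chow arrays also disagreed with each other, by 2.40 for Acly and by 1.90 for Acacb on the log2 scale. Diet and chow comparisons that rest on these arrays are given with and without them, and correlations with them only.

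Of the 9 genes, Fasn was taken as the synthase itself and Slc25a1 as the carrier that followed the other members most closely. Acss2 was taken for the widest range over the arrays, Thrsp as the accessory protein, and Pnpla3 as the member least like the rest. The promoters of these 5 genes are shown. Each is the 150 bases before the annotated start, from RefSeq on GRCm38.p6, and capitals mark CCAAT, the box bound by NF-Y, in either orientation (CCAAT or ATTGG); the coordinates are chr11:120824548-120824697 (minus strand) for Fasn, chr16:17928220-17928369 (minus) for Slc25a1, chr2:155517893-155518042 (plus) for Acss2, chr7:97417551-97417700 (minus) for Thrsp and chr15:84167666-84167815 (plus) for Pnpla3.
Fasn: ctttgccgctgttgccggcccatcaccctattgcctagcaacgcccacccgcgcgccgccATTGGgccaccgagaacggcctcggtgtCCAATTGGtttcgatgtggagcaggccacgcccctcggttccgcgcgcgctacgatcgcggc
Slc25a1: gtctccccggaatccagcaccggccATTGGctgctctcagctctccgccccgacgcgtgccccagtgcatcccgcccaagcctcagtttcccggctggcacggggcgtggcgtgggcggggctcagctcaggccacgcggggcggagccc
Acss2: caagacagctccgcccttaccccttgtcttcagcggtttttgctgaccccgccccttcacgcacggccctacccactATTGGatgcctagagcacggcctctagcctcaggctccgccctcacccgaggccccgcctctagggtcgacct
Thrsp: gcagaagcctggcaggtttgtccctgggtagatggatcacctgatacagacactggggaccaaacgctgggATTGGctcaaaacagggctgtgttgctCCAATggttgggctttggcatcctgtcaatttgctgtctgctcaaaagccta
Pnpla3: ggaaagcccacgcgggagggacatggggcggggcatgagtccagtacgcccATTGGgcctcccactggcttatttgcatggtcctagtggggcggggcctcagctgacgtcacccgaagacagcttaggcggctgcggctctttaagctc
All 9 members were found in the promoter table, and 7 of them had a CCAAT box within 300 bases (250 before the start to 50 after it), as did 37.41% of all 32851 promoters. Acaca and Aacs, whose promoters are not printed, had none, so the 5 printed are all from members with the box. Fasn had 3, at -90, -62 and -59 from the start, and the last 2 overlap as CCAATTGG. Acly, Acss2, Slc25a1 and Pnpla3 held the GC box GGGCGG on either strand, which 35.66% of promoters did. The E-box CACGTG was found in Slc25a1 alone, at -239 from the start (7.15% of promoters), outside the stretch printed above. The sterol regulatory element searched as TCACNCCAC (1.242%), the ChREBP element and the LXR repeat were matched in none of the 9 windows, which says only that those letters are not in this stretch. The tabulated start of Acaca lies 65803 bases inside the annotated gene, that of Acacb 19197 bases and that of Fasn 619 bases, so these windows each belong to 1 of several annotated starts.

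The diet comparison asked how the pathway differed between mice eating mostly fat and mice eating mostly carbohydrate. All 9 genes were lower on HFD than on LFD when the diet difference was averaged over the 3 times, by 0.67 to 1.95 on the log2 scale (1.59-fold to 3.85-fold), and the limma test over all genes called each of them at a Benjamini-Hochberg adjusted p under 0.05 (the rule for "called" throughout). Of all 22180 genes, 4.44% were called lower in that comparison. The median difference of the 9 was -1.37, against -0.01 over all genes. By time, 0 of the 9 were called at 4 weeks, 8 at 8 weeks and 9 at 12 weeks, where 0.0225%, 1.24% and 1.33% of all genes were called lower. At 4 weeks 4 of the 9 had an unadjusted p under 0.05, as did 2069 of all 22180 genes. A diet-by-time analysis of variance of the kind the design text describes called 3 (Acaca, Acacb and Aacs). Its rule differed: an unadjusted p under 0.05 with at least a 1.5-fold difference. The share of all genes that passed this rule was not counted. The sign was negative for all 9 at each time. In bulk tissue, fewer cells of a type and less RNA per cell cannot be told apart.

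**Figure D1:**
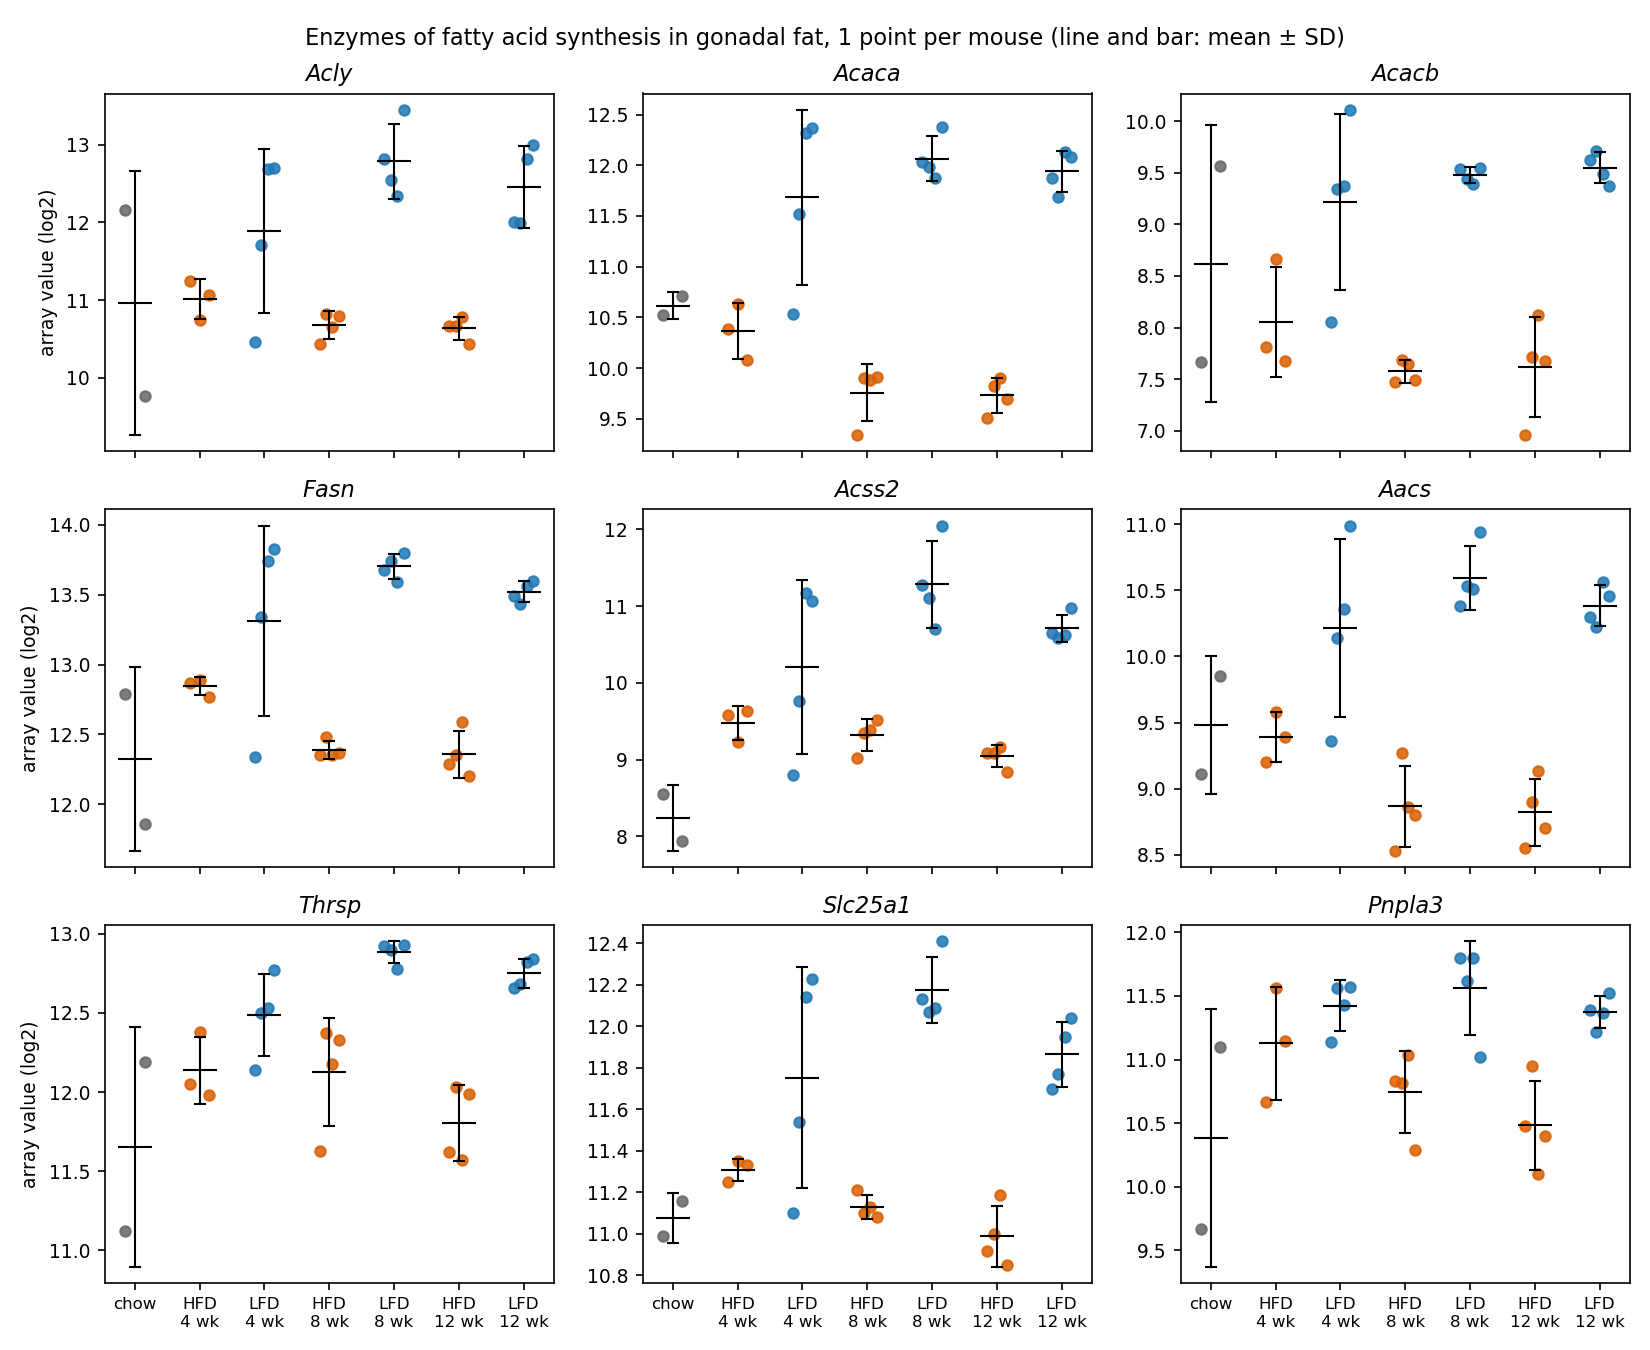
Array values (log2) of the 9 genes by group, with chow first and HFD left of LFD at each time; each point is 1 mouse, and the horizontal line and bar are the mean and SD. At 12 weeks all 4 HFD points lie below all 4 LFD points in every panel, while at 4 weeks at least 1 LFD point lies within or below the HFD range in each panel.

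Acetyl-CoA for the pathway comes mainly from citrate. Slc25a1, the citrate carrier, had values of 11.21, 11.10, 11.13 and 11.08 on HFD arrays at 8 weeks, against 12.13, 12.07, 12.09 and 12.41 on LFD arrays. At 12 weeks it had 10.92, 11, 11.19 and 10.85 on HFD, against 11.70, 11.77, 11.95 and 12.04 on LFD. The groups did not overlap at either time, and HFD arrays spread over 0.34 or less. The difference was -1.05 ± 0.17 (SE; adjusted p = 0.00251) at 8 weeks and -0.88 ± 0.17 (adjusted p = 0.00361) at 12 weeks. At 4 weeks the values were 11.25, 11.35 and 11.33 on HFD and 11.10, 11.54, 12.14 and 12.23 on LFD, which overlapped through LFD array 1.

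Acly, which cleaves the exported citrate, spread more. It had 10.43, 10.82, 10.65 and 10.80 on HFD at 8 weeks, against 12.82, 12.54, 12.34 and 13.45 on LFD, and 10.67, 10.67, 10.78 and 10.43 on HFD at 12 weeks, against 12.01, 11.99, 12.82 and 12.99 on LFD. Again no HFD array reached the lowest LFD array at these times. Acly was 4.32-fold lower on HFD at 8 weeks (-2.11 ± 0.43, adjusted p = 0.0122) and 3.52-fold lower at 12 weeks (-1.82 ± 0.43, adjusted p = 0.0164). The 12-week call rested in part on LFD array 4: without it the difference was -1.64 with an adjusted p of 0.0610. At 4 weeks its values were 11.25, 10.74 and 11.06 on HFD and 10.46, 11.71, 12.69 and 12.70 on LFD.

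Acss2 makes cytosolic acetyl-CoA from acetate, bypassing citrate. Its values at 8 weeks were 9.02, 9.35, 9.39 and 9.52 on HFD, against 11.27, 11.11, 10.70 and 12.05 on LFD. At 12 weeks they were 9.09, 9.09, 9.16 and 8.84 on HFD, against 10.65, 10.59, 10.63 and 10.97 on LFD. Groups were separate at both times, and the differences were -1.96 ± 0.36 (adjusted p = 0.00517) and -1.67 ± 0.36 (adjusted p = 0.00748). LFD arrays at 4 weeks ran widest, at 8.80, 9.77, 11.17 and 11.07, against 9.58, 9.23 and 9.64 on HFD.

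Aacs, a cytosolic ligase that activates acetoacetate so that ketone carbon can enter lipid synthesis, had 8.53, 9.27, 8.86 and 8.80 on HFD at 8 weeks, against 10.38, 10.53, 10.51 and 10.94 on LFD. At 12 weeks it had 8.55, 8.90, 9.13 and 8.70 on HFD, against 10.30, 10.22, 10.56 and 10.46 on LFD. Over 1 log2 unit separated the highest HFD array from the lowest LFD array at each of these times. The gene was 3.31-fold lower at 8 weeks (-1.73 ± 0.24, adjusted p = 0.000873) and 2.96-fold lower at 12 weeks (-1.57 ± 0.24, adjusted p = 0.000922). At 4 weeks it had 9.20, 9.58 and 9.39 on HFD and 9.36, 10.14, 10.36 and 10.99 on LFD.

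Acaca, the cytosolic carboxylase that commits acetyl-CoA to fat, had the lowest adjusted p of the 9 genes at each time. Its values at 8 weeks were 9.34, 9.90, 9.88 and 9.91 on HFD, against 12.03, 11.98, 11.87 and 12.38 on LFD. At 12 weeks they were 9.51, 9.82, 9.90 and 9.69 on HFD, against 11.87, 11.69, 12.13 and 12.08 on LFD. The 2 diets were far apart relative to their spread, by -2.31 ± 0.27 (4.95-fold; adjusted p = 0.000213, rank 2 of all genes by p) and -2.21 ± 0.27 (4.63-fold; adjusted p = 0.000289, rank 3). At 4 weeks HFD arrays had 10.39, 10.63 and 10.08, against 10.53, 11.52, 12.32 and 12.37 on LFD, a difference of -1.32 ± 0.29 with an adjusted p of 0.0651. Without LFD array 1 it was -1.70 with an adjusted p of 0.00150, and without either chow array, which enter through the shared spread, -1.32 was called with an adjusted p of 0.0401. The 4-week call therefore turned on single arrays.

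Acacb, the isoform at the mitochondrial outer membrane, whose malonyl-CoA is known to restrain carnitine palmitoyltransferase 1, had 7.47, 7.69, 7.65 and 7.49 on HFD at 8 weeks, against 9.54, 9.44, 9.39 and 9.55 on LFD. At 12 weeks it had 6.96, 7.72, 8.12 and 7.68 on HFD, against 9.62, 9.71, 9.49 and 9.37 on LFD. LFD arrays stayed within 0.34 of each other at both times, and no HFD array came within 1 unit of them. The differences were -1.91 ± 0.36 (adjusted p = 0.00641) and -1.93 ± 0.36 (adjusted p = 0.00254). HFD arrays at 4 weeks had 7.81, 8.66 and 7.68, against 8.05, 9.34, 9.37 and 10.11 on LFD.

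Fasn, the multifunctional synthase, was tightly grouped. It had 12.35, 12.48, 12.35 and 12.37 on HFD at 8 weeks, against 13.68, 13.74, 13.59 and 13.80 on LFD, and 12.29, 12.35, 12.59 and 12.20 on HFD at 12 weeks, against 13.49, 13.43, 13.56 and 13.60 on LFD. The diets did not overlap, at 2.49-fold lower (-1.32 ± 0.22, adjusted p = 0.00319) and 2.24-fold lower (-1.16 ± 0.22, adjusted p = 0.00317) on HFD. Its values were near the top of the array's range (the highest value deposited was 14.1), where an array can compress differences; whether it did so here was not tested. At 4 weeks HFD arrays had 12.87, 12.89 and 12.77, against 12.34, 13.34, 13.74 and 13.83 on LFD.

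Thrsp (Spot 14), a small protein known to rise with carbohydrate feeding and to act with the carboxylases, differed less. It had 11.63, 12.37, 12.18 and 12.33 on HFD at 8 weeks, against 12.92, 12.90, 12.78 and 12.93 on LFD. At 12 weeks it had 11.62, 12.03, 11.57 and 11.99 on HFD, against 12.66, 12.68, 12.82 and 12.84 on LFD. The groups were separate at both times, by -0.76 ± 0.19 (adjusted p = 0.0385) and -0.95 ± 0.19 (adjusted p = 0.00456). The 8-week call was lost without any 1 of 6 of its 8 arrays, with adjusted p between 0.0662 and 0.173; leaving out HFD array 1, the lowest, moved the difference to -0.59. At 4 weeks HFD arrays had 12.05, 12.38 and 11.98, against 12.14, 12.50, 12.53 and 12.77 on LFD.

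Pnpla3 (adiponutrin), a lipid-droplet protein with lipase and transacylase activity whose transcript is known to rise on carbohydrate refeeding, had the smallest averaged diet difference of the 9 (-0.67 ± 0.15, adjusted p = 0.00500). It had 10.83, 10.82, 11.04 and 10.29 on HFD at 8 weeks, against 11.80, 11.62, 11.80 and 11.02 on LFD. LFD array 4 lay just under the highest HFD array, and the difference of -0.82 ± 0.25 was not called (adjusted p = 0.0982). At 12 weeks it had 10.48, 10.95, 10.10 and 10.40 on HFD, against 11.39, 11.22, 11.37 and 11.52 on LFD, which did not overlap, and the difference was -0.89 ± 0.25 (adjusted p = 0.0471). That call was lost in 17 of the 25 fits that left out 1 array: without any 1 of 7 of its own 8 arrays (adjusted p of 0.0755 to 0.166) and without any 1 of 10 arrays of other groups (0.0511 to 0.0581). The 8-week difference was called without either chow array (adjusted p = 0.0269). HFD arrays at 4 weeks had 10.67, 11.56 and 11.15, against 11.14, 11.56, 11.43 and 11.57 on LFD.

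**Figure D2:**
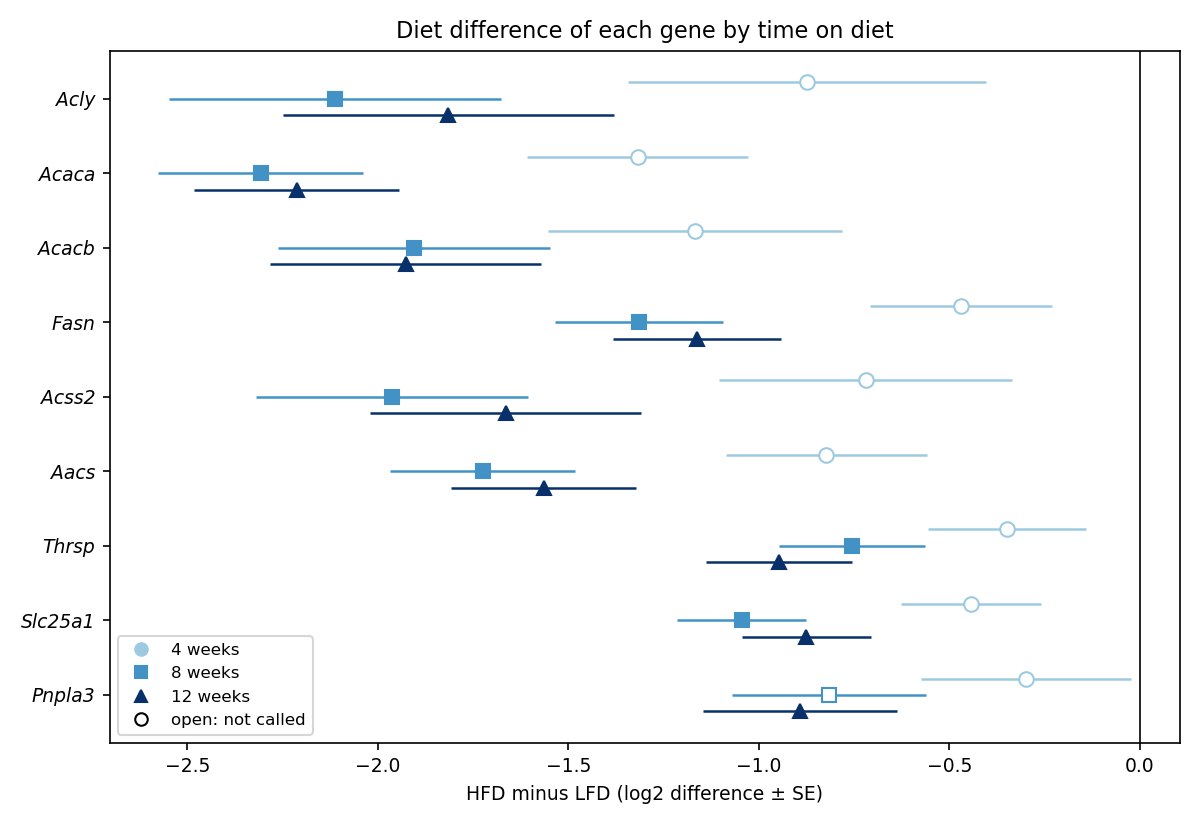
HFD minus LFD difference (log2, points ± SE) of each gene at 4, 8 and 12 weeks; filled symbols were called and open ones were not. All points lie left of 0, the 4-week points are nearest to it, and Acaca lies furthest left at each time.

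At 8 and 12 weeks the 2 diets did not overlap for 8 and 9 of the 9 genes, where 6.42% and 5.08% of all genes had no overlap with HFD lower. At 4 weeks the differences lay between -1.32 (Acaca) and -0.30 (Pnpla3), with adjusted p of 0.0651 to 0.789. All 9 overlapped at that time, where 4.41% of all genes did not, with HFD lower. Without LFD array 1 at 4 weeks the median difference of the 9 was -1.11, against -0.72 with it, and 1 gene, Acaca, was called. Weighting arrays by their quality called 5 genes at 4 weeks (Acaca, Acacb, Fasn, Aacs and Slc25a1), and leaving out the 3 arrays with epididymal transcripts called 3 (Acaca, Acacb and Fasn). The share of all genes called was not counted in these fits. The change of the diet difference with time was tested as an interaction, which called 0 of the 9 genes and 0% of all genes; 3 of the 9 (Acaca, Fasn and Aacs) had an unadjusted p under 0.05, as did 1199 of all genes. A larger difference at 8 or 12 weeks than at 4 weeks was therefore not established, although the difference was numerically larger in all 9.

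Within each diet, limma called 0 of the 9 at 8 or 12 weeks against 4 weeks, where 0% (HFD at 8 weeks), 0.573% (HFD at 12 weeks), 0.636% (LFD at 8 weeks) and 0.681% (LFD at 12 weeks) of all genes were called in either direction. With HFD, values at 12 weeks were below those at 4 weeks by 0.32 to 0.64 in all 9. Of these, 3 had an unadjusted p under 0.05, as did 2485 of all 22180 genes. The arrays did not overlap for 5 of the 9, against 5.09% of all genes that did not overlap with the later time lower. With LFD, values at 8 weeks were 0.14 to 1.08 above those at 4 weeks, and LFD array 1 was the lowest of its group at 4 weeks for all 9. In that comparison 3 of the 9 had an unadjusted p under 0.05, as did 3446 of all 22180 genes. Unadjusted, 1 of the 9 at HFD 8 weeks and 0 at LFD 12 weeks passed, where 1964 and 3335 of all genes did. The analysis of variance, unadjusted and with its 1.5-fold limit, called Pnpla3 on HFD at 12 weeks, and Acly and Acss2 on LFD at 8 weeks. The share of all genes that it called was not counted.

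Placing the diets against chow asked which diet had moved from the baseline. On LFD, averaged over the times, 7 of 9 genes were called higher than on chow, where 5.8% of all genes were, with a median difference of 1.07 against 0.03 over all genes. On HFD, 0 of 9 were called in either direction, where 15.7% of all genes were, and the median was 0.07 against 0.00. On HFD 3 of the 9 had an unadjusted p under 0.05, as did 6284 of all 22180 genes. With 2 chow mice, younger than all diet mice, chow differences also carry age, and age and diet cannot be told apart there. Other markers moved in the same comparisons: adipocyte markers were called higher for 2 of 11 on HFD and 3 of 11 on LFD (median 0.34 on each), and epididymal markers lower for 2 and 6 of 14 (medians -3.66 and -4.15). Of all 22180 genes, 2088 were called higher and 1394 lower on HFD, and 1286 higher and 1070 lower on LFD. The hepatocyte list had medians of 2.92 on HFD and 2.85 on LFD, with 1 and 0 of 26 called. The part of these tissues in the chow differences was not tested. HFD and LFD were compared with the same 2 chow arrays, so a chow array that is high or low moves both in the same direction.

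Acss2 stood furthest above chow. The lowest, median and highest of the 11 HFD arrays were 8.84, 9.23 and 9.64, and of the 12 LFD arrays 8.80, 10.8 and 12.1, against 8.55 and 7.94 on chow. All arrays of both diets were above both chow arrays, where 8.08% of all genes did so on HFD and 3.94% on LFD. LFD was 2.49 ± 0.38 above chow (adjusted p = 0.000686). HFD was 1.04 above, with an adjusted p of 0.0728, and 0.0161 without LFD array 1 at 4 weeks.

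For Acaca, HFD arrays had a lowest, median and highest value of 9.34, 9.90 and 10.63, and LFD arrays 10.53, 12.0 and 12.38, against 10.52 and 10.71 on chow. The diets lay mostly on opposite sides of chow: 10 of 11 HFD arrays were below both chow arrays and 11 of 12 LFD arrays above both. LFD was 1.28 above chow (adjusted p = 0.00920), and HFD was 0.66 below it (-0.66, adjusted p = 0.135; 0.0232 without LFD array 1 at 4 weeks). Whether HFD was called thus turned on 1 array of another group. With chow array 2 alone LFD was 1.19 above (adjusted p = 0.216).

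Slc25a1 had 10.85 to 11.35 on HFD (median 11.13) and 11.10 to 12.41 on LFD (median 12.1), against 10.99 and 11.16 on chow. The chow arrays lay inside the HFD range, and 11 of 12 LFD arrays were above both. LFD was 0.86 above chow (adjusted p = 0.00684). It was 0.94 above chow array 1 alone and 0.77 above chow array 2 alone, where it was no longer called. HFD differed from chow by 0.07, with a 95% interval from -0.31 to 0.45.

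For the other 6 genes the chow arrays were apart by 0.74 to 2.40, so their place depended on which chow array was used. Fasn had 12.34 to 13.83 on LFD, against 12.79 and 11.86 on chow; LFD was 1.19 above (adjusted p = 0.00450), 1.65 above chow array 2 alone and 0.72 above chow array 1 alone, where it was not called (adjusted p = 0.0880). Aacs had 9.36 to 10.99 on LFD, against 9.11 and 9.85 on chow; LFD was 0.92 above (adjusted p = 0.0292), and 0.55 above chow array 2 alone (adjusted p = 0.593). Acly had 10.46 to 13.45 on LFD, against 12.16 and 9.76 on chow, and LFD was 1.42 above (adjusted p = 0.0560), 2.62 above array 2 alone and 0.22 above array 1 alone. On HFD, Acly was 1.02 above array 2 alone and differed by -1.38 from array 1 alone, neither of them called. For all 3 the size of the LFD difference moved with the chow array chosen.

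Thrsp had 12.14 to 12.93 on LFD, against 11.12 and 12.19 on chow, and LFD was 1.05 above (adjusted p = 0.00389), or 0.52 above chow array 2 alone (adjusted p = 0.376). Pnpla3 had 11.02 to 11.80 on LFD, against 9.67 and 11.10 on chow, with LFD 1.07 above (adjusted p = 0.0177), or 0.35 above chow array 2 alone (adjusted p = 0.731). On HFD, against chow array 1 alone, Thrsp was called higher (0.90, adjusted p = 0.00512) and so was Pnpla3 (1.12, adjusted p = 0.00901), whereas against chow array 2 alone the differences were -0.17 and -0.32, neither called. Acacb had 6.96 to 8.66 on HFD and 8.05 to 10.11 on LFD, against 7.67 and 9.57 on chow. LFD was 0.80 above the chow mean (adjusted p = 0.206) 0.16 below chow array 2 alone (-0.16, not called) and 1.75 above chow array 1 alone (adjusted p = 0.00491). HFD was 1.82 below chow array 2 (-1.82, adjusted p = 0.0230) and 0.08 above chow array 1. Chow array 1 is the array with the epididymal list at 12.0, and its adipocyte list mean was 10.9, against 12.1 on chow array 2 and 11.7 to 12.1 on the diet arrays. Across the 9 genes, chow array 1 was below chow array 2 for 6 and above it for Acly, Fasn and Acss2; the part of epididymal tissue in this was not tested.

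**Figure D3:**
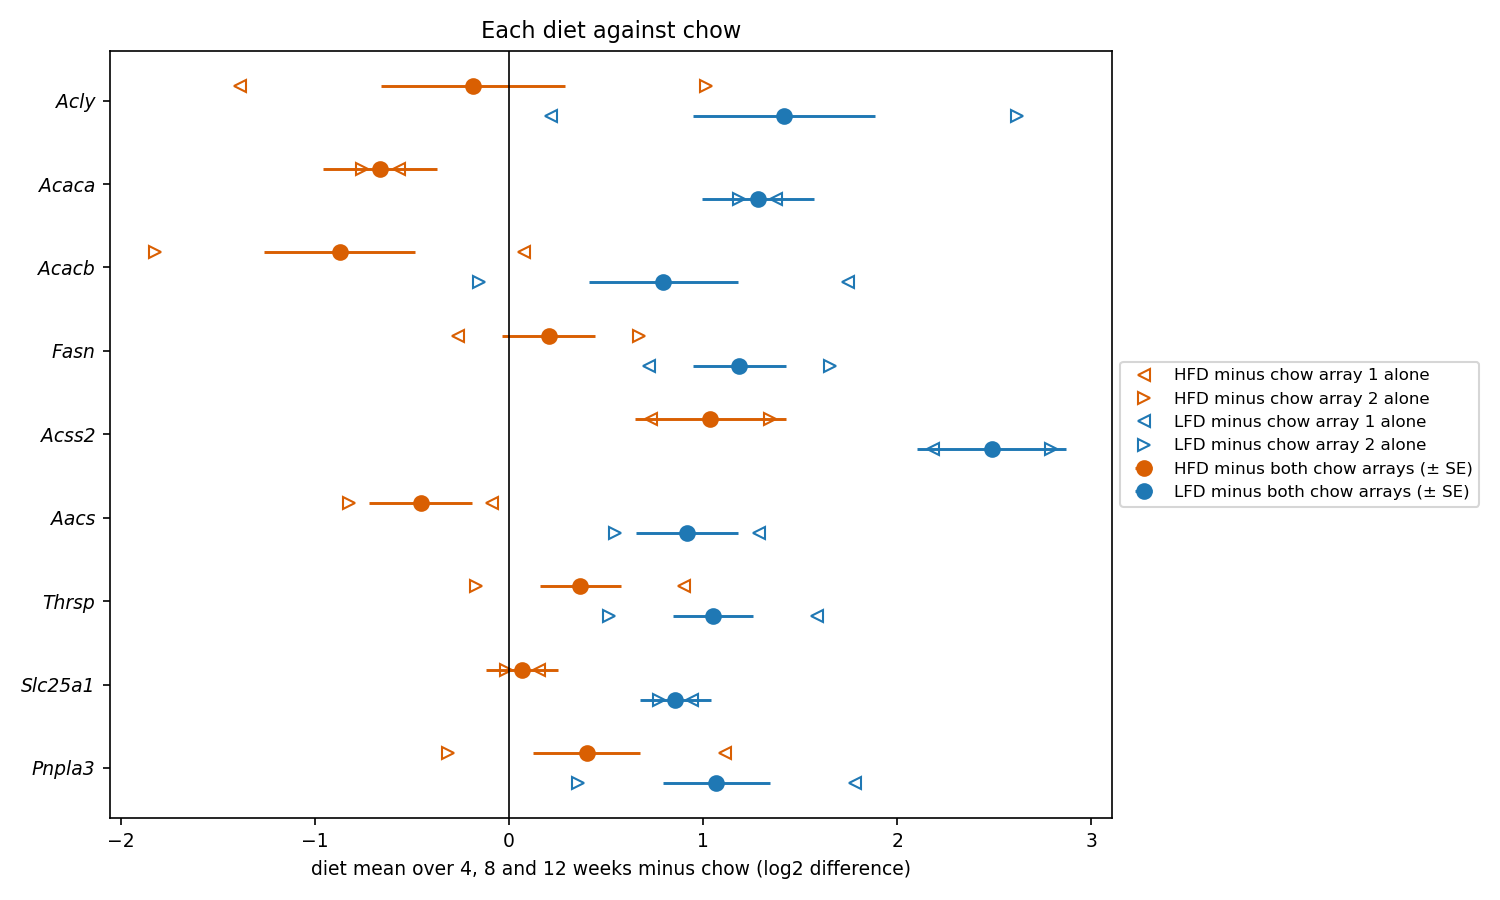
HFD minus chow and LFD minus chow (log2, mean of the diet's 3 times) for each gene, HFD above LFD; filled points with SE use both chow arrays and open triangles use 1 chow array alone. Acaca and Slc25a1 move by under 0.2 and Acss2 by 0.61 between the chow arrays, whereas Acly, Acacb, Thrsp and Pnpla3 move by over 1 unit.

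By time, LFD was called higher than chow for 1 gene at 4 weeks (Acss2; 1.07% of all genes called higher), 8 at 8 weeks (all but Acacb; 6.62%) and 5 at 12 weeks (Acaca, Acss2, Fasn, Slc25a1 and Thrsp; 5.23%). HFD was called different from chow for 0 of 9 at 4, 8 and 12 weeks, where 4.18%, 14.3% and 16.2% of all genes were called. An unadjusted p under 0.05 was reached by 2, 3 and 3 of the 9, and by 4107, 6270 and 6491 of all 22180 genes. The LFD calls depended on the fit. Without chow array 1, LFD averaged over times was called for 3 genes (Acss2, Fasn and Acly). Weighting arrays by quality, it was called for 0, with differences of 0.90 to 2.63.

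Across all 7 groups, LFD at 8 weeks had the highest mean for 8 of the 9 genes, and for Acacb LFD at 12 weeks had. The 3 LFD groups took the first 3 places for every gene, but neighbours among them overlapped, apart from Slc25a1 at 8 and 12 weeks. The lowest place was taken by HFD at 12 weeks for Acly, Acaca, Aacs and Slc25a1, by HFD at 8 weeks for Acacb, and by chow for Fasn, Acss2, Thrsp and Pnpla3. Most neighbours at that end overlapped too: only for Acss2 did the lowest group, chow, lie clear of the next.

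The 9 genes varied together. Over the 25 arrays, the 36 pairs had a Pearson r of 0.448 to 0.974 (median 0.825), which includes the diet difference itself. After group means were removed the median was 0.601 and the range -0.401 to 0.890. Slc25a1 followed the mean of the other 8 most closely over the arrays (r = 0.974), and Pnpla3 least (0.698, and 0.0807 within groups). Within groups the closest pairs were Acly with Fasn (0.890) and Acaca with Slc25a1 (0.868), and Acly with Pnpla3 had the lowest r (-0.401). The within-group values include the chow arrays, and HFD array 1 and LFD array 1 at 4 weeks, and were not computed without them. On chow arrays 1 and 2, Acly was at 12.16 and 9.76, and Pnpla3 at 9.67 and 11.10. All these r values are descriptions over arrays that share diet, time and tissue.

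Outside the 9, the genes whose values were most like their mean over the 25 arrays were Gpd2, the mitochondrial glycerol-3-phosphate dehydrogenase (r = 0.949), Pcx, pyruvate carboxylase (0.945), Acp6, a lysophosphatidic acid phosphatase (0.931), Mapk8ip1, a scaffold of JNK kinases (0.930), Pdha1, a subunit of pyruvate dehydrogenase (0.929), Pth1r, the parathyroid hormone receptor (0.929), Oscp1 (0.928) and Gbe1, the glycogen branching enzyme (0.924). Within groups their r was between 0.654 (Pdha1) and 0.888 (Gpd2), with the same deviating arrays included. All 8 were lower on HFD averaged over times, by 0.55 (Acp6) to 1.14 (Oscp1), which their likeness to the 9 genes presupposes.

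Neighbouring steps were less uniform. Of 14 measured genes from glucose uptake to citrate, 8 were called lower and 1 higher on HFD averaged over times, with a median of -0.50. The leading members were at the mitochondrial entry: Pdha1 (-0.78 ± 0.08, adjusted p = 3.71e-06) and Pdhb (-0.82 ± 0.12, adjusted p = 7.62e-05) of pyruvate dehydrogenase, the pyruvate carrier subunit Mpc1 (-0.71 ± 0.09, adjusted p = 1.30e-05) and Pcx (-0.85 ± 0.13, adjusted p = 0.000125). The insulin-responsive glucose transporter Slc2a4 was lower by 0.85 (-0.85, adjusted p = 0.000211), and Tpi1 of glycolysis was the one called higher (0.30, adjusted p = 0.0190).

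Of 11 measured genes that lengthen or desaturate the product, 4 were called lower, with a median of -0.20. Elovl6, which extends palmitate to stearate, had 8.93, 9.18, 9.36 and 9.37 on HFD at 12 weeks, against 11.95, 11.48, 11.27 and 11.66 on LFD, with no overlap. Its averaged difference was -1.99 ± 0.33 (adjusted p = 0.000294). Fads1, the delta-5 desaturase, was lower by 1.06 (-1.06 ± 0.13, adjusted p = 1.46e-05). Hsd17b12, of the elongation cycle (-0.33, adjusted p = 0.00953), and Scd1, the delta-9 desaturase (-0.19 ± 0.05, adjusted p = 0.0168), were also called. Scd1 lay at 13.28 to 13.83 on all arrays, near the highest deposited value, so its difference carries the same untested limit of compression as that of Fasn. Fads1 on LFD was near chow (-0.05, adjusted p = 0.935), and on HFD the difference was -1.10 (adjusted p = 0.00314), but the chow arrays were 11.03 and 9.69, so both values depend on which of them is used.

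Of 8 measured genes that supply NADPH, 2 were called lower (median -0.19): malic enzyme Me1 (-0.71 ± 0.11, adjusted p = 0.000185) and Taldo1 (-0.37, adjusted p = 0.0173). Of 12 regulators, 3 were called lower (median -0.17): Mlxipl, encoding ChREBP (-1.0 ± 0.12, adjusted p = 1.81e-05), the coactivator Ppargc1b (-0.60, adjusted p = 0.00251) and Srebf1 (-0.51 ± 0.14, adjusted p = 0.0168). Mlxipl had 8.93, 9.03, 7.99 and 8.41 on HFD at 12 weeks, against 9.71, 9.50, 9.81 and 9.95 on LFD, without overlap. It was also called at 8 weeks (-1.11, adjusted p = 0.00668) and 12 weeks (-1.15, adjusted p = 0.00226), and Srebf1 at neither (-0.70 and -0.69, adjusted p = 0.119 and 0.101). Srebf2, which serves the sterol genes, was not called (0.22, adjusted p = 0.383).

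Of 12 genes for paralogs of the enzymes and for malonyl-CoA handling, 3 were called lower (Acss3 -0.74, Slc25a10 -0.40 and Mcat -0.34) and 1 higher. The one called higher was Cpt1a, the carnitine palmitoyltransferase that malonyl-CoA inhibits (0.50 ± 0.12, adjusted p = 0.00756). It was not called at any single time, at 0.55, 0.58 and 0.36 after 4, 8 and 12 weeks. Among 8 genes of the AMP-activated kinase that phosphorylates the carboxylases and its partners, Prkaa2, a catalytic subunit, was called (-0.70, adjusted p = 0.000921) and the list median was -0.01. Background shares for these counts are the 4.44% of all genes called lower and 6.03% called higher.

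**Figure D4:**
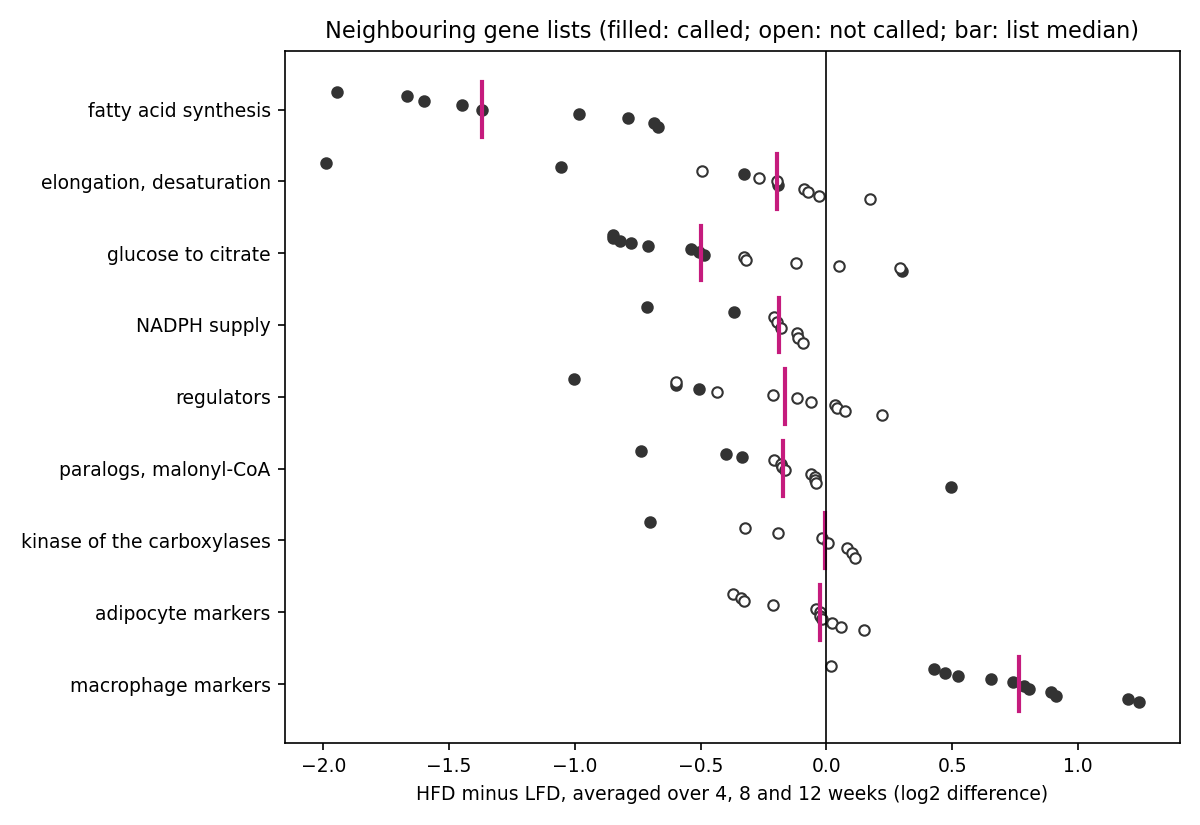
HFD minus LFD averaged over 4, 8 and 12 weeks (log2) for each measured gene of the 9-gene set, of 6 neighbouring lists and of adipocyte and macrophage markers; filled points were called, open points were not, and the bar is the list median. All 9 fatty acid synthesis genes lie between -1.95 and -0.67, whereas the adipocyte markers centre near 0 and 11 of the 12 macrophage markers are called higher.

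Markers of other cell types moved with the diet. Macrophage markers were called higher on HFD for 0, 7 and 10 of 12 genes at 4, 8 and 12 weeks, where 0.189%, 1.17% and 3.13% of all genes were, with list means of 9.06 to 9.68 on HFD and 7.99 to 8.41 on LFD at 12 weeks. Adipocyte markers were called for 0 of 11 at each time, with medians of 0.02, -0.12 and -0.02, and list means of 11.66 to 11.78 on HFD and 11.77 to 11.95 on LFD at 12 weeks. With the adipocyte list mean as a covariate the 9 genes' differences were -2.16 to -0.76 at 12 weeks and 9 were called, against -2.21 to -0.88 without it. The share of all genes called with that covariate was not counted. Averaged over times, progenitor and fibroblast markers were called higher on HFD for 3 of 9 (Lum, Col1a1 and Col3a1) and lymphocyte markers for 2 of 9 (Ighm and Cd4). Of 8 thermogenic markers, 3 were called lower (Cidea, Ppargc1a and Cox8b) and 1 higher (Otop1). The part of these cells in the differences was not tested.

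Hepatocyte transcripts were present on both diets at 8 and 12 weeks, and several of the 9 genes are known to be expressed in liver. The hepatocyte list's median difference, HFD minus LFD, was 1.83 at 8 weeks and -1.51 at 12 weeks. Within the hepatocyte-rich arrays alone, all 9 differences at 12 weeks (3 HFD and 3 LFD arrays) were called, at -2.21 to -0.77. At 8 weeks (3 HFD and 2 LFD arrays) 7 were called, at -2.11 to -0.62. The share of all genes called in that fit was not counted. Within the arrays with a list mean below 8, some of which still held hepatocyte transcripts (Alb, encoding albumin, at 10.46 on HFD array 1 at 8 weeks and 11.84 on LFD array 3 at 12 weeks, against 6.53 and 6.60 on chow), the differences were -2.79 to -0.58 at 8 weeks (1 HFD and 2 LFD arrays) and -2.23 to -0.76 at 12 weeks (1 HFD and 1 LFD array), where 0 were called. With the 2 classes of array as a block, the class itself shifted the 9 genes by -0.16 to 0.22, and none of these shifts was called (lowest adjusted p = 0.844). That shift is pooled over groups whose own gaps went both ways. They ran from -0.67 (Acacb, HFD at 12 weeks) to 0.66 (Thrsp, HFD at 8 weeks), each resting on 1 array below 8. The difference was negative in both classes for all 9 genes. Beyond these values, the part of hepatocytes in the differences was not tested.

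**Figure D5:**
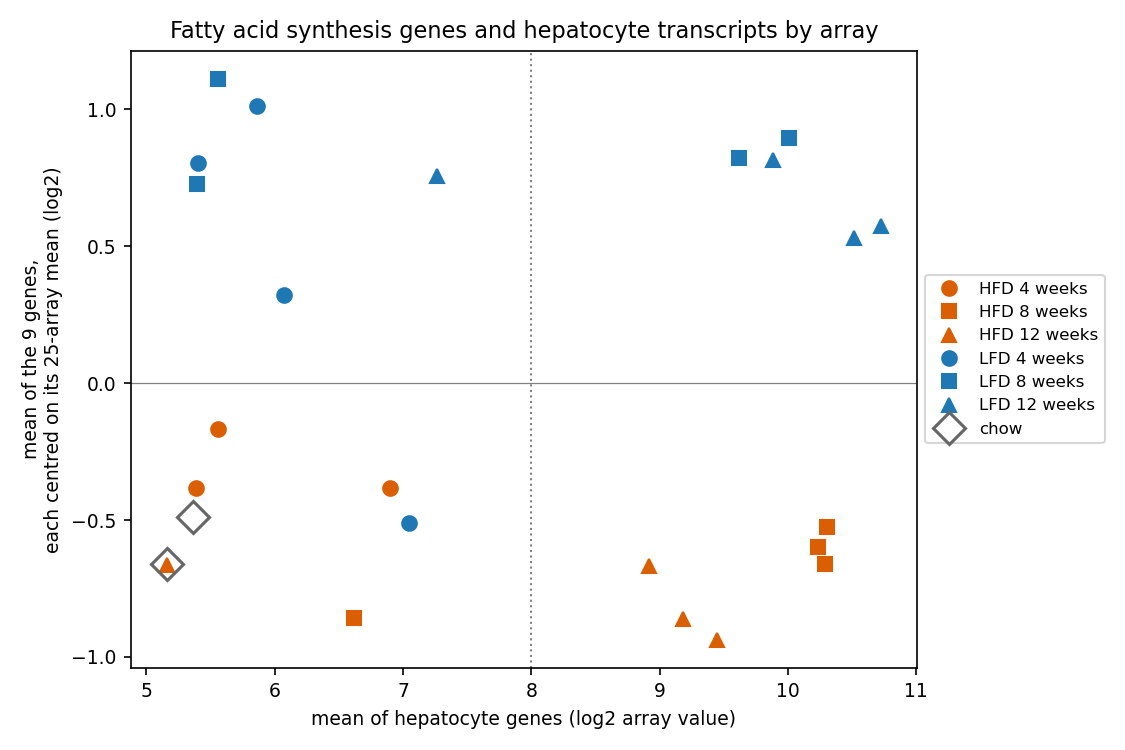
Mean of the 9 genes, each centred on its mean over the 25 arrays (log2), against the mean of the hepatocyte genes (log2) for each array; the dotted line at 8 divides arrays with and without high hepatocyte transcripts. On both sides of the line LFD arrays lie above 0 and HFD arrays below, except LFD array 1 at 4 weeks, which lies at -0.51.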

How the data were processed

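Expression in gonadal fat of 25 mice was measured on Affymetrix arrays. Transcriptome Analysis Console 4.0.2 was used by the authors, per the series' design text, and the deposited values are on the log2 scale; how background was corrected and arrays normalized is not stated in the labels. Of 34472 clusters, 23521 had 1 gene symbol in the platform annotation; the cluster with the highest mean stood for a gene, which gave 22180 genes, with no filter on level. Limma 3.58.1 in R 4.3.3 fitted 7 group means to all 25 arrays (18 residual degrees of freedom), and p-values were adjusted by Benjamini-Hochberg over all genes within a comparison. Differences are log2, with moderated standard errors; intervals are 95%. Labels call the samples biological replicates. The precision is limited by 2 to 4 arrays a group.

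The members, gene lists and tests were chosen with earlier results of these data known. The text names the 9 members in every comparison, up to 4 called genes with the smallest p of each neighbouring list averaged over times, and the 8 genes most like the members' mean (predicted or provisional names left out). Slc2a4, Tpi1, Srebf2, the markers named for other cell types and the chow position of Fads1 were added after their values were seen. Levels of different genes were not compared.

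Tested on simulated data (22180 genes, 200 changed), the fit recovered 92.5% of genes changed 2-fold at 8 weeks and 80.6% at 4 weeks. The simulation drew independent normal noise for each gene, with no deviating array and no admixed tissue. It checks that the fit works and does not give its power on these arrays. Replicate numbers were not used as pairs in the main fit. Deviations of same-numbered arrays of different groups had a median r of 0.05 (-0.61 to 0.71), against -0.02 (-0.71 to 0.65) for different numbers. Chow array 1, and HFD array 1 and LFD array 1 at 4 weeks, held epididymal transcripts and share a number. These values do not settle whether numbers pair arrays. Alternatives were other samples in the fit, normalization, clusters, filter, moderation, array weights, threshold, replicate block, tissue covariates, the design text's analysis of variance and leaving out each array. The analysis of variance called genes at an unadjusted p under 0.05 with at least a 1.5-fold difference, and the interaction with no fold limit. Promoters were searched in Python 3.11.15.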

Additional observations from a re-analysis of the deposited data

Results flagged for a closer look

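Among the 45 groups of 4 arrays looked at (9 genes in 5 groups), 3 held an array whose gap to its nearest neighbour exceeded Dixon's 95% limit of 0.829 of the group's range, and chance gives about 1 in 20. Acaca on HFD at 8 weeks was lowest on array 1 at 9.34, against 9.88 to 9.91 on the other 3, all of which were hepatocyte-rich while array 1 was not. Fasn on HFD at 8 weeks was highest on array 2 at 12.48, against 12.35 to 12.37. Acss2 on LFD at 12 weeks was highest on array 4 at 10.97, against 10.59 to 10.65. Each of these arrays stayed on its own diet's side of the other diet's range.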

How the results depend on the processing

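The averaged diet difference called all 9 genes in every alternative except the fit on arrays with a hepatocyte list mean below 8, where 2 were called, and no called value changed sign. The counts of 9 genes called for HFD against LFD were 0 at 4 weeks, 8 at 8 weeks and 9 at 12 weeks. Shares over all genes were not counted in the alternative fits. At 4 weeks the count was 1 without genes below the median level, with the hepatocyte and epididymis covariates or with the adipocyte covariate, 3 without the 3 arrays that stand apart, 3 by the design text's analysis of variance, and 5 with array weights. In those low-hepatocyte arrays it was 0 at 8 and 12 weeks, with 1 HFD array at each. Leaving out each array in turn gave 0 to 1, 7 to 9 and 7 to 9 at the 3 times, and 9 for the average.

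Comparisons with chow moved more. For LFD against chow at 4, 8 and 12 weeks and averaged (1, 8, 5 and 7 called), a fit of the compared groups alone gave 0, 0, 1 and 3, array weights 0, 0, 0 and 0, low-hepatocyte arrays 0 in all, the hepatocyte and epididymis covariates 0, 4, 0 and 2, and the adipocyte covariate 0, 5 and 4 (4 weeks, 8 weeks and averaged). Centring gave 0 and the level filter 3 at 4 weeks, and without the 3 arrays that stand apart the counts were 3 at 4 weeks and 5 at 8 weeks. Leaving out each array gave 0 to 6, 3 to 8, 3 to 8 and 3 to 8; LFD array 1 at 4 weeks and each chow array moved them most. For HFD against chow (0 called), the groups alone gave 2 for the average; the tissue covariates gave 1 at 12 weeks and 1 averaged, the adipocyte covariate 2, 3 and 1 at 8 weeks, 12 weeks and averaged, and without the 3 arrays that stand apart 1, 2, 3 and 2 at 4, 8, 12 weeks and averaged. Leaving out each array gave 0 to 2, 0 to 2, 0 to 1 and 0 to 2. The replicate block moved HFD against chow to 2 at 8 weeks, 2 at 12 weeks and 1 averaged, and LFD against chow at 4 weeks to 0; it changed no other count by over 1.5 times. Within diets and for the interaction (0 called), the analysis of variance gave 1 for HFD at 12 weeks, 2 for LFD at 8 weeks and 1 for the interaction, the tissue covariates gave 1 for HFD at 12 weeks, and leaving out each array gave 0 to 0. The causes were not tested; fewer arrays enter where arrays are left out.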
